A study of Mus musculus with 85 samples.

Results

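Procr-positive (Procr+) and Procr-negative (Procr-) hematopoietic stem cells (HSC) of the mouse fetal liver were compared, cell by cell, across all genes of a whole-genome array. The cells belonged to a series of 85 single cells, each amplified and hybridised to its own Affymetrix array of 45101 probe sets, and 27 of these arrays held HSC sorted from wild-type fetal liver at embryonic day 14.5. The sort kept cells positive for CD150, c-Kit, Sca-1 and Mac-1 and negative for CD48 and lineage markers. The other arrays held earlier cells, namely endothelial (EC), hemogenic endothelial (HEC) and cluster cells of E10.5 embryos, and clusters of E12.5. Cluster cells were wild type, sorted as c-Kit+, CD31+, CD45+ and SSEA1-. EC and HEC came from eR1-GFP embryos, which carry a GFP reporter, and were sorted as CD31+ cells without CD45, CD41 or Ter119, HEC being positive and EC negative for GFP. Values are the log2 expression values that the authors deposited. Most probe sets lie near a floor, and values over 5 count here as on, or over background.

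Arrays of fetal liver cells 20 and 21 were almost the same (r = 0.991, where the second closest pair of the series had 0.859). Their mean was used as a single cell, giving 26 fetal liver cells. Cells 5 and 7 were left out because their value of Lyve1, a hyaluronan receptor of sinusoidal and lymphatic endothelium, was over 10. The 24 cells that remained were split by Procr, which gave 17 Procr+ cells over log2 5 and 7 Procr- cells at or below it. All 24 cells shared the same genotype, tissue, stage and sorting gate. Procr itself therefore defined the sides, and the cells were chosen by a measured value, so every difference between them is a description. No animal or litter is named for any cell. The population counts as 1 sample, no test was possible, and each SD is the spread over cells. Sex is not named for the cells either. At least 1 Y-linked gene was on in 10 of 17 Procr+ and 6 of 7 Procr- cells, and the X-linked Xist in 1 and 0. The part of sex in the differences was not tested.

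Procr encodes the endothelial protein C receptor (EPCR, CD201), a cell-surface receptor that binds protein C and its activated form. On endothelium it helps thrombin bound to thrombomodulin to activate protein C, and bound activated protein C signals through the thrombin receptor Par1. In mouse bone marrow and fetal liver EPCR is also a surface marker of stem cells, and in bone marrow its ligand acts on HSC adhesion through the integrin VLA-4, a dimer of Itga4 and Itgb1.

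The promoter of Procr and those of the genes with the largest difference in each direction, Chek2 (highest in Procr+ cells) and Rufy1 (lowest in Procr+ cells), are shown to give the sequence beside the values below. They are 300-base windows around the annotated start from RefSeq, build GRCm38.p6, each written 5′ to 3′ on the strand of its gene. Capitals mark the AP-1 motif TGACTCA, and positions are counted from 1 at the 5′ end.
Procr, chr2:155750967-155751266, plus strand: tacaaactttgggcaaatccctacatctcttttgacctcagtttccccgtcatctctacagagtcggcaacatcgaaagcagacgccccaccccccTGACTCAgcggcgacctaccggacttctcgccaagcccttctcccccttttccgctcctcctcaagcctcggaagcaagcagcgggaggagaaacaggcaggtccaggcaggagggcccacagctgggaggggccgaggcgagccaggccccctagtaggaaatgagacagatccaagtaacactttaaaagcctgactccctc
Chek2, chr5:110839733-110840032, plus strand: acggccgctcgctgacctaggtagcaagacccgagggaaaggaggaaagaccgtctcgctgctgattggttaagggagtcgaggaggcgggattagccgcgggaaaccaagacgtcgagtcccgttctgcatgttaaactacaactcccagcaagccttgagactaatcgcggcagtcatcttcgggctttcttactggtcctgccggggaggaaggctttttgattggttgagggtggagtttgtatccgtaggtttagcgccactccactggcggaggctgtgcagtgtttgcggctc
Rufy1, chr11:50431076-50431375, minus strand: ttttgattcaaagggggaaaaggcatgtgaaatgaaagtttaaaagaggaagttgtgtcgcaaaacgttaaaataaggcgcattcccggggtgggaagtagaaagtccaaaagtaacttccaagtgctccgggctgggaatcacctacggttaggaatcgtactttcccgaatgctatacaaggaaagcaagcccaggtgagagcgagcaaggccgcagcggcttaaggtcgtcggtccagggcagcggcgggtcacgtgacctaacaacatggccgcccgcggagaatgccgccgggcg
Both strands were searched for 6 motifs. AP-1 was read as TGACTCA and the E-box as CANNTG. The GATA motif was read as AGATAA, and the ETS motif as CCGGAA. The RUNX motif was read as TGTGGT, and the TATA box as the letters TATAAA. No motif is contained in another. Procr held 1 AP-1 motif, at position 97, which 5.19% of 32544 promoters of the same length hold, and 1 E-box, at position 217, which 72.3% hold. The Rufy1 window held 4 E-boxes and none of the other letters searched. The Chek2 window held none of the 6 motifs. The 4 motifs found in none of these windows occur in 11.2% (GATA) to 16.7% (RUNX) of all promoters. These matches describe the windows only.

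The values that chose the sides were far apart. Procr ran between 7.80 and 13.03 (median 11.42) in the 17 Procr+ cells and between 2.35 and 2.80 (median 2.48) in the 7 Procr- cells. Just inside the threshold lay Procr+ cells 22 (7.80), 6 (9.41) and 15 (9.84), and just outside lay Procr- cell 13 (2.80) and the averaged pair 20 and 21 (2.52). No cell fell between 2.80 and 7.80, so a threshold of 4 or 7 chose the same cells. A value near the floor can mean that a cell held no transcript or that it was not captured, which cannot be told apart on 1 array per cell.

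Across the series Procr was detected in a single EC of 7 and in 5 of the 7 HEC (71.4%). Among cluster cells it was found in 3 of 28 at E10.5 (10.7%) and in none of 16 at E12.5 (exact 95% upper limit 20.6%). Of the 26 fetal liver HSC 17 had it (65.4%, exact binomial 95% interval 44.3 to 82.8%). These intervals cover counting error over cells only. The highest value outside the fetal liver was 12.03, in an E10.5 cluster cell, so the cells that had Procr in the earlier populations reached the levels of Procr+ HSC. The 2 cells left out for Lyve1 had no Procr over background.

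**Figure D1:**
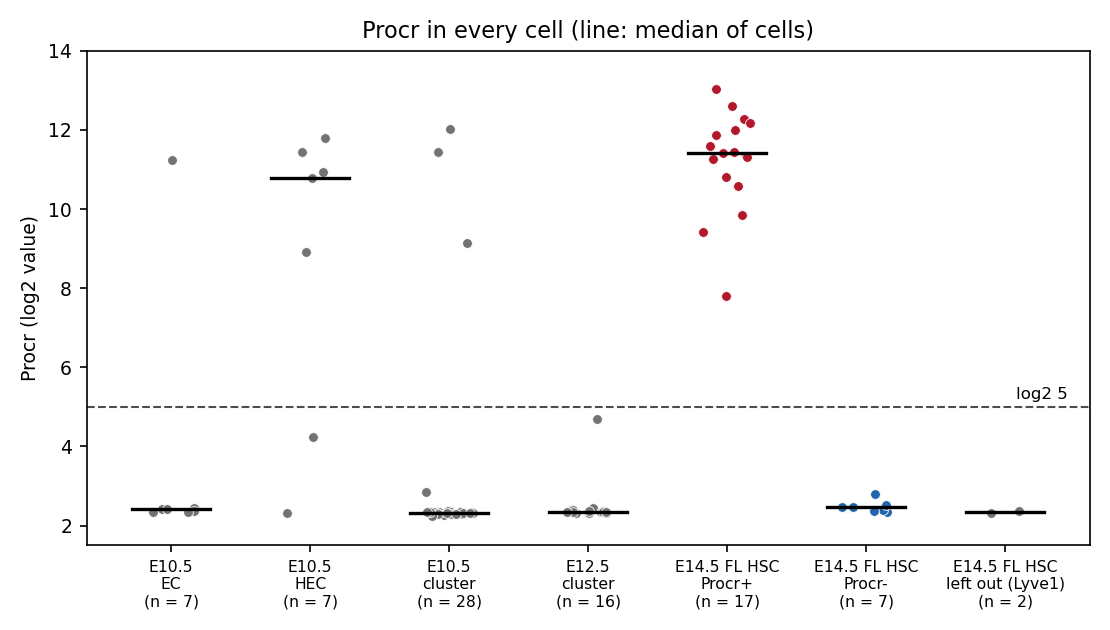
Procr log2 value of every cell, by population in order of stage, with the 26 fetal liver HSC (FL HSC) shown as Procr+, Procr- and left out for Lyve1. Points are cells, lines are medians of cells and the dashed line is the threshold of log2 5: Procr+ HSC lie between 7.80 and 13.03 and Procr- HSC between 2.35 and 2.80.

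Both sides carried the markers of HSC. Of 8 HSC markers on the array, 6 to 8 were over background in each Procr+ cell and 5 to 8 in each Procr- cell. The stem-cell transcription factor Hlf was on in 15 of 17 Procr+ and 6 of 7 Procr- cells, Meis1 in 16 and 7, Mecom in 17 and 6, and Kit in all cells of both sides. Slamf1, which encodes the gated CD150, was on in 7 of 17 Procr+ and 3 of 7 Procr- cells. Itgam, which encodes the alpha chain of the gated Mac-1, was on in 1 of 17 Procr+ and 0 of 7 Procr- cells, although every cell was sorted as positive for the protein. Lyve1, Stab1, Stab2, Flt4 and Mrc1 (sinusoidal endothelium) and Alb and Ttr (hepatocytes, whose marker Afp was on in 1 cell of each side) were at background in all 24 cells. So were the 3 erythroid, 4 mast-cell and 4 lymphoid markers chosen. Some other genes of these types were on, such as Tfr2 in 11 of 17 Procr+ and 4 of 7 Procr- cells. Gata2 was on in 14 and 6 cells, Cd79b in 6 and 5, and Flt3 in 5 and 2. Of other sinusoidal and lymphatic genes, Clec4g was on in 2 of 17 Procr+ and 1 of 7 Procr- cells. Nr2f2, Nrp2, Pdpn and Aplnr were each on in 1 Procr+ cell, and Fcgr2b in 1 Procr- cell. Markers of other types were on in some cells. At least 1 of 6 endothelial markers was on in 10 of 17 Procr+ and 6 of 7 Procr- cells, mostly Tek, and Cdh5, which is also 1 of the 6 sinusoidal markers, was on in 1 cell of each side. At least 1 of 4 megakaryocyte markers was on in 10 of 17 Procr+ and 3 of 7 Procr- cells, and 1 of 5 macrophage markers in 3 of 17 Procr+ and 0 of 7 Procr- cells. Of 4 hepatocyte markers, 1 Procr+ cell had 2 on and 1 Procr- cell had 1, and of 4 mesenchymal markers Pdgfra was on in 2 of 17 Procr+ and 0 of 7 Procr- cells. The part of such markers in the results was not tested. Cells 5 and 7, in contrast, had all 6 sinusoidal markers and lacked Hlf, Mecom, Meis1 and Ptprc.

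The sides differed in depth and signal level, and these values stand beside every count below. Procr+ cells had 4750 to 7972 probe sets over background (6380 ± 943, SD, n = 17 cells) and Procr- cells 6113 to 8489 (6954 ± 766, n = 7 cells). The median of a cell's values over background was 9.95 ± 0.76 in Procr+ cells and 8.94 ± 0.76 in Procr- cells. Signal over background was thus brighter in Procr+ cells by about the spread between cells of a side, over fewer probe sets. Most arrays of the series also carried 1 common value for the control probe set Dap 3' (82 of 85) and 1 for Phe 3' (65 of 85). Both common values were present in 10 of 17 Procr+ and 7 of 7 Procr- arrays, called equal-control cells here. Values within those cells are given below, and beyond that the part of depth and level in the results was not tested.

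**Figure D2:**
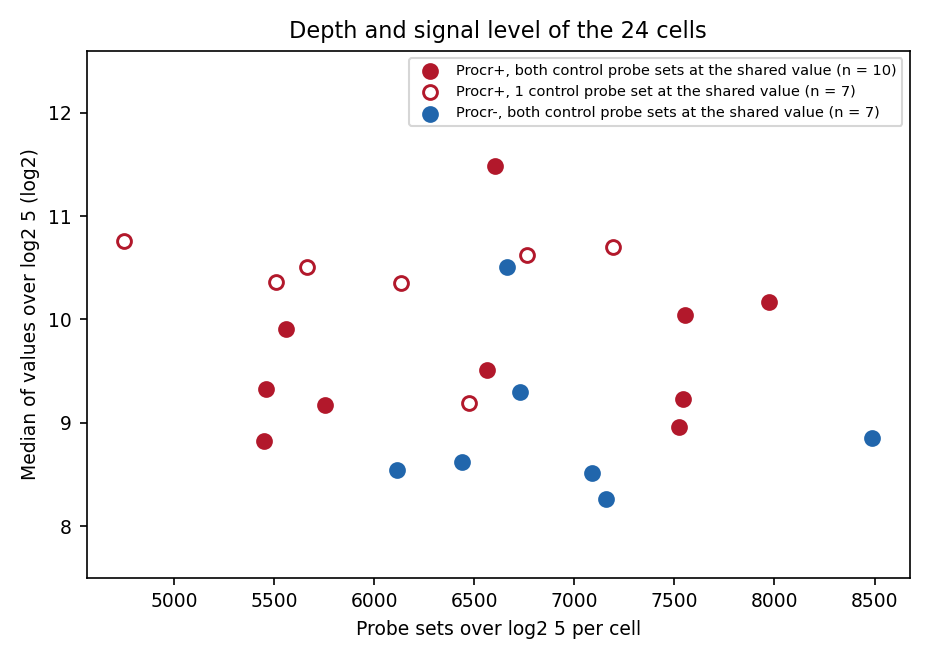
Number of probe sets over log2 5 (x axis) and median of those values in log2 units (y axis) for the 17 Procr+ and 7 Procr- cells. Filled points are equal-control cells and open points the 7 other Procr+ cells: 6 of the 7 Procr- cells lie at or below 9.30, and Procr+ cells reach 11.49.

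Of 18194 genes with a probe set, 8280 were measured, that is over background in at least 3 of the 24 cells. A mean difference of at least 2 on the log2 scale between the sides made a gene called. In Procr+ cells 456 genes were higher, 5.51% of those measured, and 357 were lower, 4.31%. The median difference over all measured genes was 0.12 (Procr+ minus Procr-), and 54.6% of differences were positive. No gene separated the sides: 0 of 8280 genes (0%) had values that did not overlap, apart from Procr, which is left out of these counts. Within the 10 Procr+ and 7 Procr- equal-control cells, 678 genes were higher and 437 lower. Genes were measured anew in those fewer cells, so these counts are not shares of the 8280 genes. Of the genes called as reported, 346 of the 456 higher and 251 of the 357 lower kept a size of 2 there.

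Most differences were smaller than the cell-to-cell spread. The median SD within a side was 2.95 over measured genes and 3.20 over called genes, and 333 genes were on in every cell. The difference was larger than the within-side SD for 192 genes (2.32% of those measured), 153 of them among the 813 called. When each cell was left out in turn, 231 of the 456 higher and 147 of the 357 lower genes kept a difference of 2 in every turn. Shifting each cell to an equal median level moved the median of all genes to -0.89 and left 76 higher and 1420 lower genes. The shift lowered every gene's difference by the same amount, values at the floor included. Fewer higher and more lower genes were thus set in advance. The share of higher genes among those called was 56.1% as reported and 5.08% after that shift, so a count in 1 direction is read only beside the level of the sides.

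The called genes differed mainly in how many cells expressed them. The median higher gene was over background in 58.8% of Procr+ and 28.6% of Procr- cells, and 92 of the 456 were on in no Procr- cell. The median lower gene was on in 29.4% of Procr+ and 71.4% of Procr- cells, 64 of the 357 were on in every Procr- cell, and 13 were on in no Procr+ cell. A gene on in few cells counted as measured only through the side that had it, so these counts follow in part from the filter.

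Among the 333 genes on in all 24 cells, 1 was called. Telo2, which encodes a chaperone cofactor of the ATM and mTOR kinase family, ran between 5.75 and 10.89 (median 8.34) in Procr+ cells and between 5.15 and 7.26 (median 5.82) in Procr- cells, a difference of 2.14. At a size of 1, 35 of these genes were higher and 2 lower, while 57.5% of all measured genes called at that size were higher. The higher ones included Uba7, the activating enzyme of the interferon-induced modifier Isg15 (1.97), Plcg2, a phospholipase of receptor signalling (1.89), and Gimap6, a lymphoid and HSC GTPase (1.71). The lower ones were Grwd1, a ribosome assembly factor (-1.21), and Cox6a1, a cytochrome oxidase subunit (-1.04). The median difference of the 333 genes was 0.24, and signal over background was brighter in Procr+ cells (9.95 against 8.94). The part of that level in these differences was not tested.

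Whole profiles did not fall apart by side. Correlations over all 45101 probe sets, most of them near the floor, averaged 0.603 between pairs of Procr+ cells (0.539 to 0.695). They averaged 0.649 between pairs of Procr- cells (0.614 to 0.682) and 0.627 between cells of opposite sides (0.574 to 0.716). The highest single correlation of these 3 kinds of pair was one between sides.

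Among genes on in at least 50% of the Procr+ cells, the 12 with the largest positive difference were Chek2, Gt(ROSA)26Sor, Secisbp2l, Htatsf1, Camk2g, Hadh, Rap1gds1, Lemd3, Naip5, Kpna3, Smarca2 and Adprm, with differences between 3.76 and 4.83. Chek2, the checkpoint kinase activated by ATM after DNA breaks, had values between 2.48 and 11.34 (median 9.40) in Procr+ cells and between 2.44 and 8.45 (median 2.49) in Procr- cells. It was over background in 14 of 17 Procr+ cells (82.4%, exact 95% interval 56.6 to 96.2%) and in 1 of 7 Procr- cells, cell 1 (14.3%, 0.36 to 57.9%). Its means were 8.16 ± 3.05 and 3.33 ± 2.26 in Procr+ and Procr- cells, a difference of 4.83. The sides overlapped through Procr- cell 1 and through Procr+ cells 3, 8 and 22, which were at the floor.

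Hadh, a mitochondrial dehydrogenase of fatty-acid oxidation, was on in every Procr+ cell. Its values were 7.14 to 13.45 (median 11.30) in Procr+ cells and 2.34 to 12.21 (median 7.0) in Procr- cells, of which 4 had it. Smarca2, the Brm ATPase of SWI/SNF chromatin remodelling complexes, ran between 2.38 and 12.71 (median 11.22) in Procr+ cells and between 2.58 and 10.28 (median 6.76) in Procr- cells, and was on in 15 and 4 of them. Both genes were thus common on both sides, with the low cells found more often among Procr- cells. Camk2g, the gamma subunit of calcium/calmodulin-dependent kinase II, was on in 14 of 17 Procr+ cells (median 9.58) and 2 of 7 Procr- cells (median 2.62).

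Rap1gds1, a guanine exchange factor and chaperone of small GTPases, was on in 14 of 17 Procr+ cells (median 9.39) and 2 of 7 Procr- cells (median 3.25). Htatsf1, an RNA-binding cofactor of transcript elongation and splicing, was on in 13 of 17 Procr+ (median 10.78) and 2 of 7 Procr- cells (median 2.88). Lemd3, an inner nuclear membrane protein that binds Smads, and Kpna3, an importin alpha that carries proteins into the nucleus, were each on in 12 of 17 Procr+ cells and 1 of 7 Procr- cells. Each of these 4 genes was below background in 3 to 5 Procr+ cells, and which cells these were differed between the genes.

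Secisbp2l, a relative of the selenoprotein-synthesis factor Secisbp2, was on in 10 of 17 Procr+ cells and in no Procr- cell, with Procr+ values of 2.32 to 12.32 (median 7.32) and Procr- values of 2.31 to 2.54. Naip5, the sensor of bacterial flagellin in an inflammasome, and Adprm, a metal-dependent phosphatase of ADP-ribose, were each on in 9 of 17 Procr+ cells and in no Procr- cell. For these 3 genes all Procr- cells were below background, at most 3.59 for Adprm, and so were 7 or 8 Procr+ cells. Gt(ROSA)26Sor, the noncoding transcript of the Rosa26 locus, was on in 11 of 17 Procr+ cells (median 9.41) and in 1 of 7 Procr- cells, the averaged pair. By the share of cells, the 5 largest excesses in Procr+ cells were Hspg2, Chek2, Secisbp2l, Lemd3 and Kpna3. Hspg2, which encodes the basement membrane protein perlecan, was over log2 5 in 13 and 0 cells, yet its means were 5.37 ± 0.49 in Procr+ and 4.88 ± 0.05 in Procr- cells, so its share turned on values beside the threshold.

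**Figure D3:**
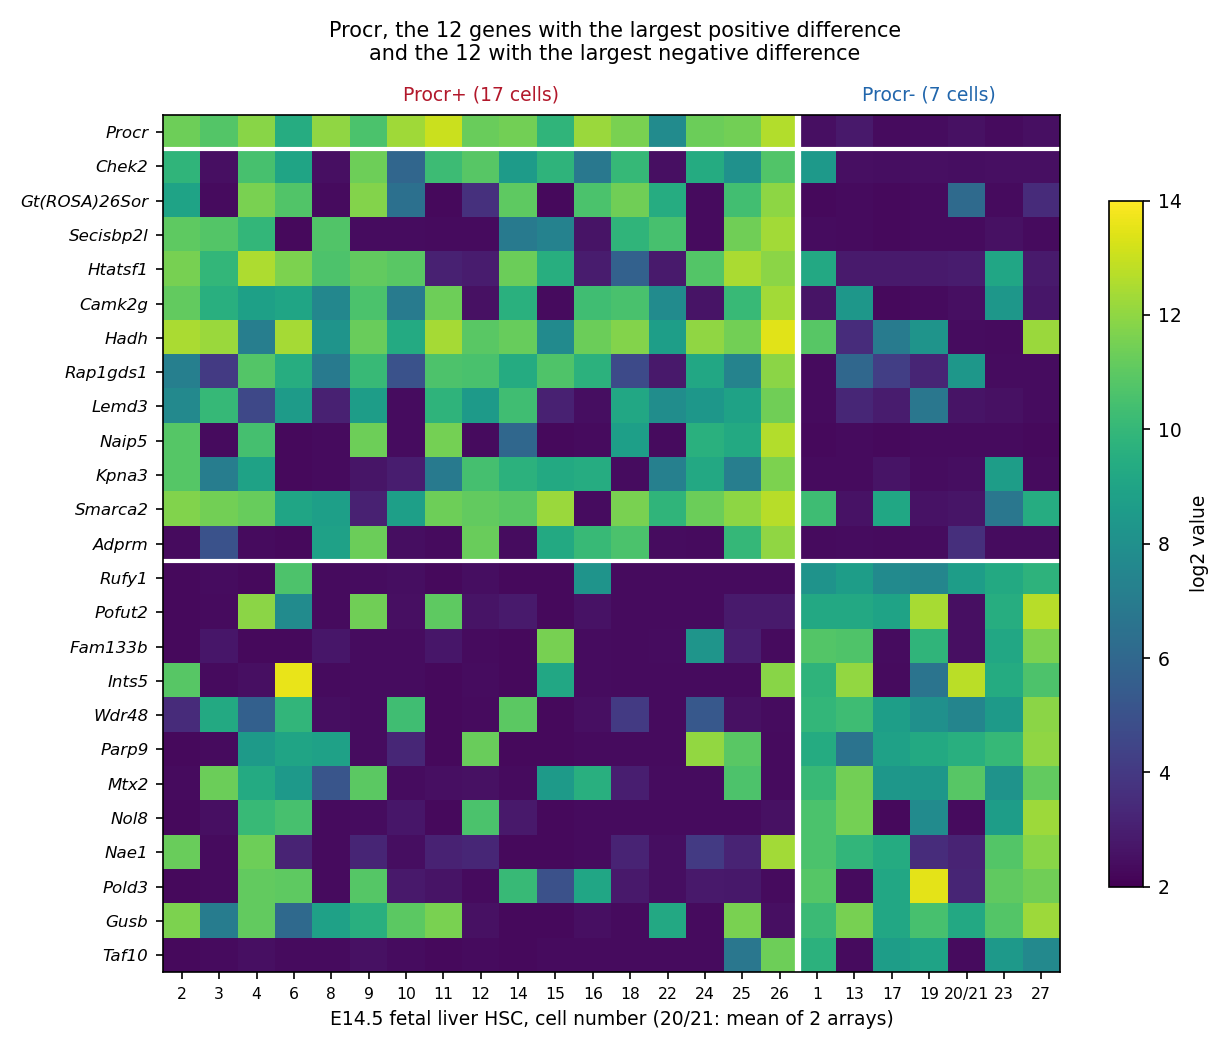
Log2 values of Procr (top row), then the 12 leading higher and the 12 leading lower genes, in 17 Procr+ cells (left) and 7 Procr- cells (right). No gene below the top row separates the sides: between 7 and 12 of the 12 higher genes were on in a Procr+ cell and 2 to 4 in a Procr- cell, as the choice of genes by these values sets.

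Among genes on in at least 50% of the Procr- cells, the 12 with the largest negative difference were Rufy1, Pofut2, Fam133b, Ints5, Wdr48, Parp9, Mtx2, Nol8, Nae1, Pold3, Gusb and Taf10, with differences between -5.35 and -3.73. Rufy1, an endosomal effector of Rab GTPases, had values between 2.31 and 10.64 (median 2.37) in Procr+ cells and between 7.5 and 9.78 (median 8.68) in Procr- cells. It was on in 2 of 17 Procr+ cells, 6 and 16, and in all 7 Procr- cells. Its means were 3.20 ± 2.38 in Procr+ and 8.55 ± 0.82 in Procr- cells, a difference of -5.35, and its correlation with Procr over the 24 cells was -0.78. Those 2 Procr+ cells alone lay at the Procr- level.

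Gusb, lysosomal beta-glucuronidase and a commonly used reference gene, ran between 2.31 and 11.62 (median 7.03) in Procr+ cells and between 9.21 and 12.25 (median 10.50) in Procr- cells, on in 10 and 7 of them. Mtx2, a metaxin of mitochondrial protein import, was on in 8 of 17 Procr+ (median 3.02) and 7 of 7 Procr- cells (median 10.08). Wdr48, the activating partner of the deubiquitinase Usp1, and Parp9, an interferon-linked ADP-ribosyltransferase family member, were each on in 6 of 17 Procr+ and 7 of 7 Procr- cells. These 4 genes were on in every Procr- cell, and the Procr+ cells fell into some with similar levels and some at the floor.

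Pofut2, which adds fucose to thrombospondin repeats, and Ints5, a subunit of the Integrator complex that processes small nuclear RNA, were each on in 4 of 17 Procr+ and 6 of 7 Procr- cells. Fam133b was on in 2 of 17 Procr+ and 5 of 7 Procr- cells, as was Taf10, a subunit of TFIID and SAGA. Nol8, a nucleolar protein, and Nae1, a subunit of the enzyme that activates the ubiquitin-like Nedd8, were each on in 3 of 17 Procr+ and 5 of 7 Procr- cells. Pold3, a subunit of DNA polymerase delta, was on in 5 of 17 Procr+ and 5 of 7 Procr- cells. Pofut2 had 1 further probe set at -3.92 and 1 at 0.12, and Pold3 had 1 at -2.67 and 1 at 1.65, so the values of these 2 genes depend on the probe set.

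By the share of cells, the 5 largest deficits in Procr+ cells were Rufy1, Rnf166, Ddx27, Ascc1 and Chek1. Chek1, the checkpoint kinase activated by ATR at stalled replication, was on in 3 of 17 Procr+ cells (2.30 to 9.98, median 2.78) and in 6 of 7 Procr- cells (2.37 to 9.48, median 8.15), a difference of -3.23. Its counterpart Chek2 differed in the opposite direction. Ddx27, an RNA helicase of ribosome assembly, and Ascc1, a subunit of the ASC-1 complex, were on in the same numbers of cells as Chek1, with differences of -3.71 and -3.35. Rnf166, a ubiquitin ligase, was on in 2 of 17 Procr+ and 6 of 7 Procr- cells (-2.61).

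All 24 of the largest differences kept their sign under each of the 15 alternatives computed over cells, genes and scaling. All kept a size of 2 or more within the equal-control cells. The 24 were chosen by their size in these same cells, so a kept sign was largely set in advance. The alternatives with Procr split at log2 4 or 7, or on any probe set, used the same cells and values as reported. With the mean of all of a gene's probe sets in place of 1 probe set, 17 of the 24 kept that size. The differences of Chek2 and Rufy1 were 4.83 and -5.35 as reported, and both have 1 probe set on the array.

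Measured HSC-associated genes, 35 of 41 on the array, differed in both directions. In Procr+ cells 5 of the 35 were higher and 1 lower, where 5.51% and 4.31% of all measured genes were, with a median difference of 0.37 against 0.12 over all genes, and the number of them on per cell was 23.3 ± 3.5 in Procr+ and 23.7 ± 2.1 in Procr- cells (SD, n = 17 and 7 cells). After shifting cells to an equal median level the list's median was -0.64, beside -0.89 over all genes.

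The higher members were Cd27, Cd93, Hoxa9, Gfi1 and Neo1. Cd27, a TNF-receptor family member of stem and lymphoid cells, ran between 2.35 and 11.93 (median 9.73) in Procr+ cells, 13 of 17 on, and between 2.31 and 10.64 (median 2.35) in Procr- cells, 2 of 7 on, with a difference of 3.76. Cd93, a receptor found on fetal stem cells and endothelium, was on in 15 of 17 Procr+ cells (median 11.03) and 5 of 7 Procr- cells (median 6.82), a difference of 2.89. Both genes overlapped between the sides, and both kept a difference of 2 whichever cell was left out. Hoxa9, a homeobox factor of HSC growth, differed by 2.71 (14 of 17 Procr+ and 5 of 7 Procr- cells), and Gfi1, a repressor that restrains HSC division, by 2.30 (15 and 5 cells). Without Procr- cell 1 neither was called, at 1.2 for Gfi1 and 1.98 for Hoxa9. Neo1, a netrin and BMP co-receptor, rested on 4 of 17 Procr+ cells and 0 of 7 Procr- cells (2.28).

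Tgm2, a transglutaminase of HSC and endothelium, was the lower member, with values of 2.35 to 13.01 (median 7.92) in Procr+ cells, 10 of 17 on, and 6.31 to 10.88 (median 9.16) in Procr- cells, all 7 on. The cell-cycle inhibitor Cdkn1c differed by -1.97 and missed the size called, on in 6 of 17 Procr+ and 4 of 7 Procr- cells. Esam (1.79), Mecom (1.72), Gimap6 (1.71) and Ndn (1.6) differed by less than 2 in the other direction. Hlf (0.91), Meis1 (0.13), Fgd5 (0.04) and Slamf1 (-0.15) differed by under 1.

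**Figure D4:**
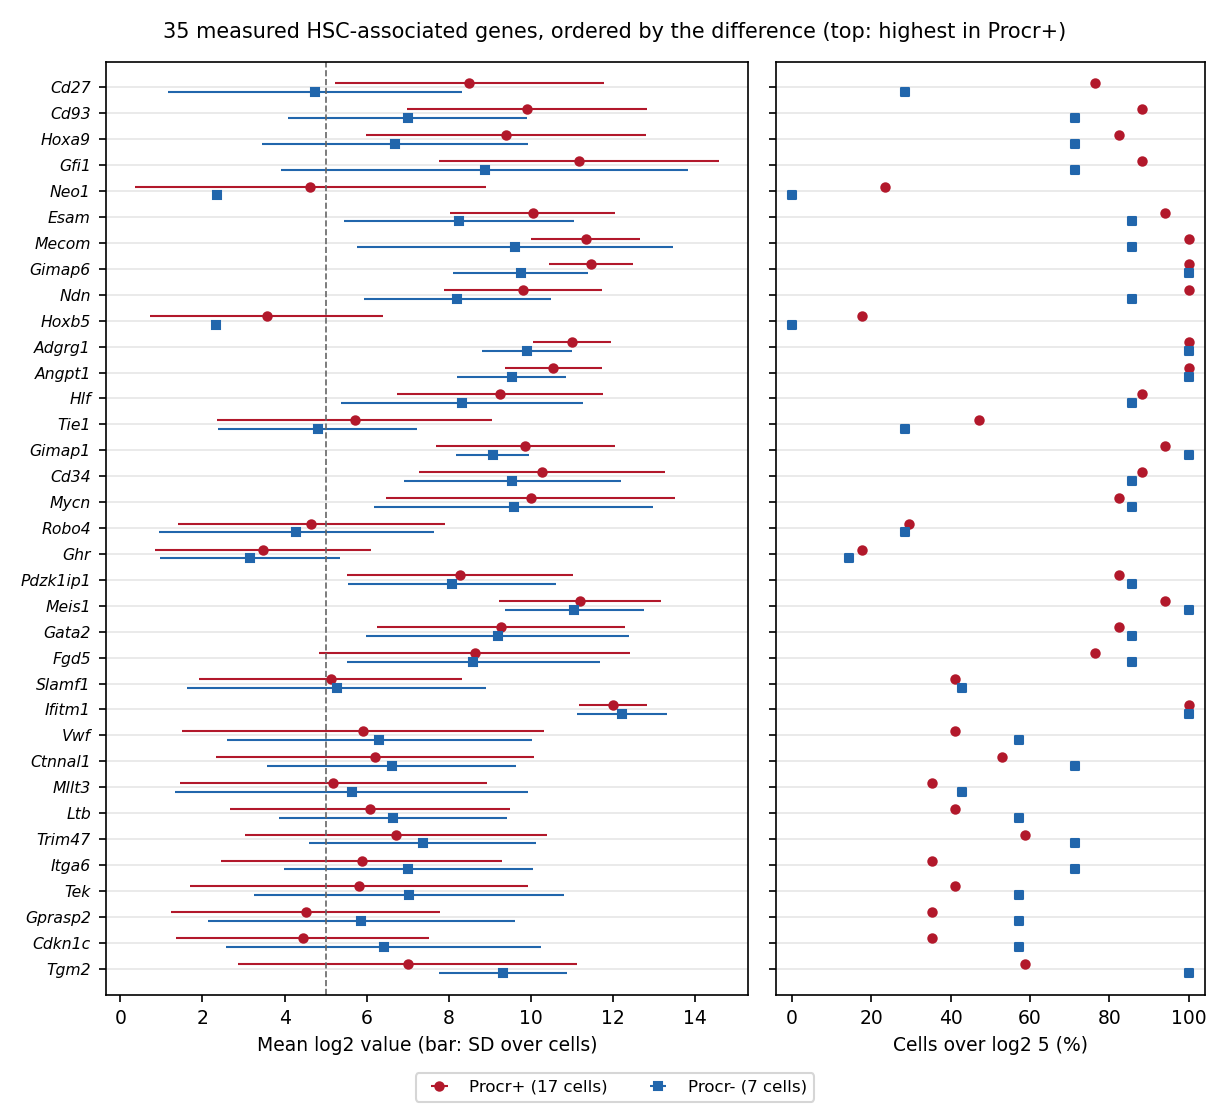
The 35 measured HSC-associated genes in 17 Procr+ and 7 Procr- cells, ordered by the difference. Left, mean log2 value with SD over cells as bars and the threshold of 5 dashed; right, percentage of cells over log2 5: the bars of the sides overlap for all 35 genes, with Cd27 at the top (76.5% of Procr+ and 28.6% of Procr- cells) and Tgm2 at the bottom (58.8% and 100%).

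The genes of the protein C pathway and of thrombin receptors, among which Procr was not counted, had mostly negative differences. Of 31 on the array 14 were measured, and 0 were higher and 3 lower in Procr+ cells, where 4.31% of all measured genes were lower, with a median difference of -1.11 against 0.12 over all genes. The mean over these 14 genes ran between 4.79 and 8.14 (median 6.14) in Procr+ cells and between 6.09 and 8.77 (median 6.95) in Procr- cells, so the sides overlapped. The list's median was negative in each of the 15 alternatives, -0.70 within the equal-control cells and -0.08 with medians over cells in place of means. Splitting Procr at log2 4 or 7, or on any probe set, repeated the reported value, as the cells were the same.

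The 3 lower members were Tfpi, Itgb2 and Arrb2. Tfpi, the inhibitor of tissue factor, ran between 2.30 and 11.26 (median 2.93) in Procr+ cells and between 2.35 and 10.69 (median 8.68) in Procr- cells, on in 6 of 17 and 6 of 7, a difference of -2.64. Itgb2, the beta chain of leukocyte integrins such as Mac-1, was on in 5 of 17 Procr+ and 5 of 7 Procr- cells (-2.64). Arrb2, a beta-arrestin of Par1 signalling, was on in 6 of 17 Procr+ and 6 of 7 Procr- cells (-2.11). The other probe sets of Tfpi differed by -1.74, -0.24 and 0.83 and that of Arrb2 by 0.03, so both calls depend on the probe set, and Arrb2 missed a size of 2 in 15 of the 24 turns that left out a cell, to -1.59 without Procr- cell 27.

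Among partners of EPCR, Proc, the ligand protein C, and its cofactor Pros1 were over background in no cell of either side, and Thbd (thrombomodulin) was on in 0 of 17 Procr+ and 1 of 7 Procr- cells. F2r, which encodes Par1, was on in 5 of 17 Procr+ cells and 3 of 7 Procr- cells (-1.41). Adam17, the protease that sheds EPCR, was on in 9 and 4 cells (0.47), and Cdc42, a GTPase downstream in HSC adhesion, was on in all cells (0.34). Anxa5, an annexin that binds phosphatidylserine, differed by -1.76, and was on in 12 of 17 Procr+ and 7 of 7 Procr- cells.

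Adhesion genes included the other low integrin. Of 23 measured, 0 were higher and 3 lower (Itgb1, Itgb2 and Icam2), beside 4.31% lower over all genes. The median of -0.13 had no settled sign, running between -0.33 and 0.30 as single cells were left out and turning positive in 5 of 15 alternatives. Itgb1, the beta chain of VLA-4, ran between 2.31 and 9.36 (median 3.37) in Procr+ cells and between 2.72 and 10.72 (median 9.12) in Procr- cells, on in 4 of 17 and 5 of 7, a difference of -3.55. Its other probe sets that were on in several cells differed by -1.18 (9 of 17 Procr+ and 7 of 7 Procr- cells) and -1.34 (4 and 4 cells). Both had the same direction but missed the size called, so the call of Itgb1 depends on the probe set. The alpha chain Itga4 differed by 1.43 the other way and was on in 16 of 17 Procr+ and 6 of 7 Procr- cells. Icam2, an adhesion molecule of leukocytes and endothelium, ran between 2.56 and 11.84 (median 4.44) in Procr+ cells and between 8.71 and 10.39 (median 8.84) in Procr- cells, on in 8 and 7 of them (-2.40), and differed by -1.10 within the equal-control cells.

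Of 18 measured pan-endothelial genes, 0 were higher and 2 lower in Procr+ cells (Icam2 and Ramp2), beside 4.31% lower over all genes. The median of 0.22 ran between -0.01, without Procr- cell 19, and 0.47 as single cells were left out, and turned negative in 6 of 15 alternatives. Ramp2, a co-receptor of adrenomedullin, was on in 3 cells of each side (-2.03), and it missed a size of 2 in 16 of the 24 turns, at -1.15 without Procr- cell 27. Cdh5 was on in 1 cell of each side, Tek in 7 of 17 Procr+ and 4 of 7 Procr- cells (-1.22), and Egfl7 in all cells (0.75). The ETS factors Erg (1.88) and Fli1 (1.96) were higher by just under 2.

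Cell-cycle genes held few called members, where 5.51% of all measured genes were higher and 4.31% lower. Of 34 measured G2 and mitosis genes 0 were called, with a median difference of 0.17, and their mean per cell was 4.97 ± 2.99 in Procr+ and 4.93 ± 3.11 in Procr- cells. At least 17 of the 34 were on in 5 of 17 Procr+ cells (6, 10, 14, 15 and 16) and in 2 of 7 Procr- cells (1 and 17). Leaving out single cells moved the list's median between -0.33 and 1.17. Among 29 S-phase genes Pola1, a subunit of DNA polymerase alpha, was higher (2.16, on in 8 of 17 Procr+ and 1 of 7 Procr- cells) and the helicase subunit Mcm3 lower (-2.14, on in 12 and 7). Of 21 cell-cycle inhibitors and quiescence genes, 2 were higher and 0 lower. These were Cdkn2d, the p19 inhibitor of Cdk4 and Cdk6 (2.97, 9 of 17 Procr+ and 1 of 7 Procr- cells), and Fbxw7, a ubiquitin ligase subunit that targets Myc (2.35, 6 of 17 and 0 of 7).

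Lists of signalling receptors held some called members, where 5.51% of all measured genes were higher and 4.31% lower. Of 18 cytokine receptors 2 were higher and 0 lower, with a median of 0.48. They were Ifnar2, a chain of the type I interferon receptor (2.82, on in 10 of 17 Procr+ and 2 of 7 Procr- cells), and Tgfbr1, the TGF-beta type I receptor (2.46, 12 and 3 cells). Tgfbr1 was also the called member of 17 TGF-beta and BMP genes, whose median was 0.75. Notch1, the receptor that starts T-cell fate, differed by 2.37 (12 of 17 Procr+ and 2 of 7 Procr- cells) and was the called member of 12 Notch genes (median 0.05). Of 22 interferon-response and MHC genes 18 had a positive difference, against 54.6% of all genes, and 1 was called, the peptide transporter Tap1 (3.29, 9 and 1 cells). Class I genes H2-K1 (1.39) and H2-D1 (1.14) were on in all cells. The median of this list was 0.51 as reported, and -0.50 after shifting cells to an equal median level, beside -0.89 over all genes. The same shift gave -0.53 for the cytokine receptor list, -0.26 for the TGF-beta and BMP list and -0.95 for the Notch list.

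Among genes of blood lineages, the shares called over all measured genes, 5.51% higher and 4.31% lower, stand beside counts over short lists. Of 10 measured myeloid genes 2 were higher and 1 lower (median 1.00). Prtn3, the granule proteinase 3, ran between 8.48 and 12.48 (median 11.46) in Procr+ cells, all 17 on, and between 2.31 and 11.17 (median 9.76) in Procr- cells, 5 of 7 on, a difference of 3.26. Gfi1, also counted above, was the other higher member, and the chaperone Calr the lower one (-2.03). Other granule genes differed: Mpo was on in 0 of 17 Procr+ and 2 of 7 Procr- cells, and Elane and Ctsg were at background in every cell. Lyz2 differed by 1.63, on in 17 of 17 Procr+ and 6 of 7 Procr- cells.

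Of 11 megakaryocyte genes Gp9, a platelet glycoprotein of the von Willebrand factor receptor, was higher (2.64, on in 9 of 17 Procr+ and 1 of 7 Procr- cells) and 0 were lower. Vwf itself was on in 7 of 17 Procr+ and 4 of 7 Procr- cells (-0.40), and the platelet chemokine Pf4 was on in 0 and 2 cells. Of 7 lymphoid genes Mzb1, a chaperone of immunoglobulin assembly (2.75, 7 of 17 and 0 of 7 cells), and Notch1 were higher, and Gata3, a T-cell and HSC factor, was lower (-2.32, 1 of 17 and 3 of 7 cells). The 6 measured erythroid genes held none called.

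Among fetal and imprinted growth genes, Igf2 and Sox4 were called and were on in every Procr+ cell. Over all measured genes 5.51% were called higher and 4.31% lower. Igf2, the fetal growth factor, ran between 6.95 and 12.40 (median 10.87) in Procr+ cells, all 17 on, and between 2.40 and 12.16 (median 6.46) in Procr- cells, 6 of 7 on, a difference of 3.19. It was the called member of 12 imprinted genes (median 0.53), among which its clearance receptor Igf2r differed by 1.99 and the noncoding Meg3 by 1.87. Of 10 genes of the fetal programme, Sox4 (2.28, 17 of 17 Procr+ and 6 of 7 Procr- cells) and the Igf2 mRNA-binding protein Igf2bp3 (2.11, 8 and 1 cells) were higher and the nucleosome-binding Hmgn3 (-2.29, 3 and 4 cells) lower. Sox4 differed by 1.08 without Procr- cell 23, and Hmgn3 by -1.52 without that cell. Hmga2, a chromatin factor of fetal HSC, was on in 16 of 17 Procr+ and 7 of 7 Procr- cells (0.32), and Lin28b in 1 and 0 cells.

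Metabolic and general genes mostly lay near 0, and their counts stand beside 5.51% higher and 4.31% lower over all measured genes. The 27 ribosomal protein genes held none called (median -0.08), nor did the 19 immediate early and stress genes. Among 30 genes of oxidative phosphorylation the electron carrier Cycs was lower (-2.14), and among 19 glycolysis genes the glucose transporter Slc2a3 (-2.27). Of 25 lysosome and autophagy genes Ctsz, a cathepsin (2.80, 8 of 17 Procr+ and 1 of 7 Procr- cells), was higher and Glb1, beta-galactosidase (-2.16, 8 and 6 cells), lower. Birc2, an inhibitor of apoptosis, was the called member of 12 survival genes (2.90, 11 of 17 Procr+ and 2 of 7 Procr- cells). Of 15 housekeeping genes Gusb was lower and none higher.

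**Figure D5:**
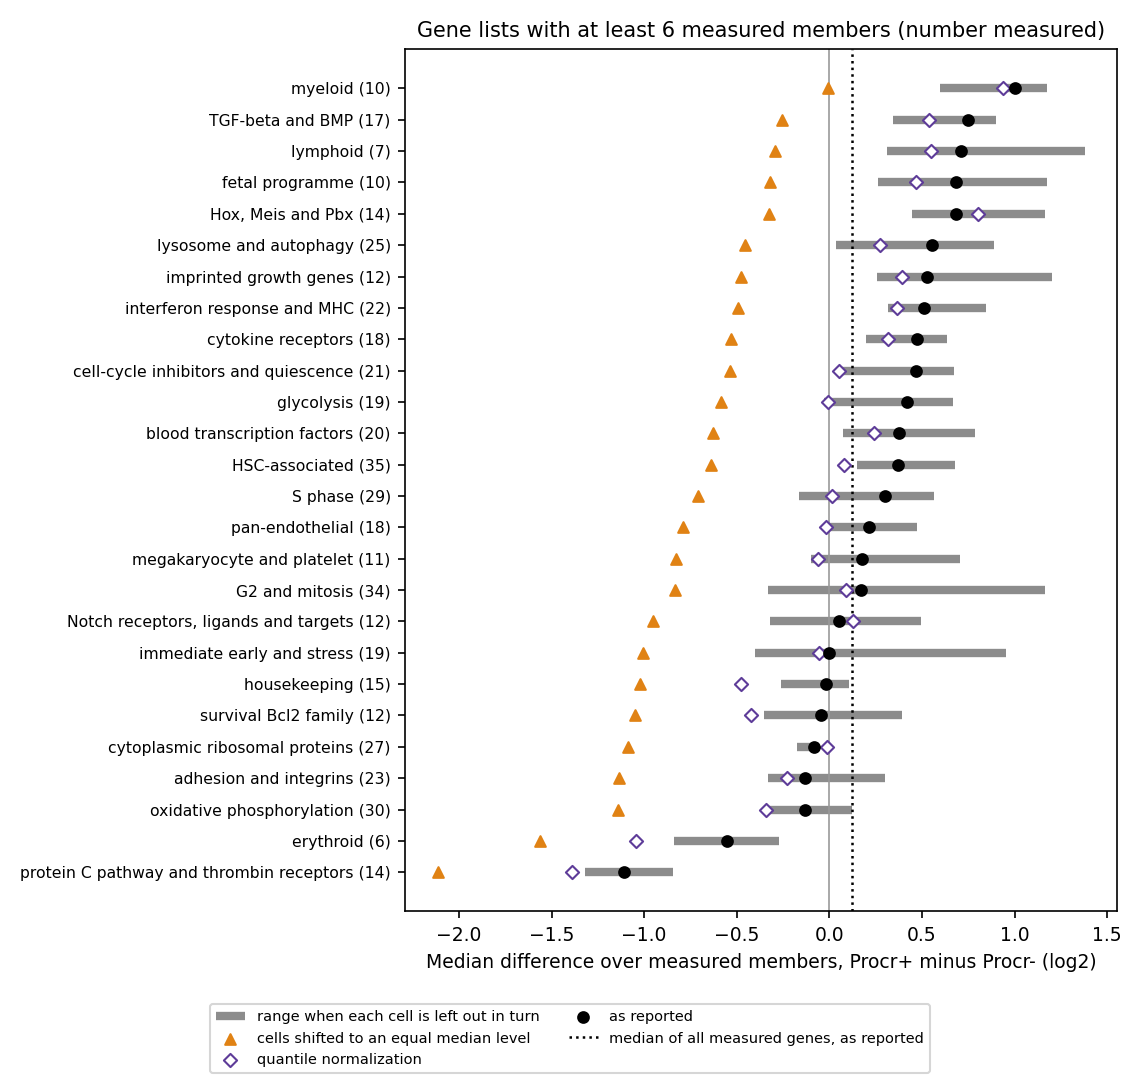
Median difference (Procr+ minus Procr-, log2) over the measured members of each list with at least 6 of them. Black points are the values as reported, bars the range when each cell is left out in turn, triangles and diamonds other scalings, and the dotted line the median of all measured genes (0.12): the protein C and thrombin receptor list lies lowest (-1.11) and the myeloid list highest (1.00), and the shift to an equal median level moves every list down together.

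Over all lists, 20 genes were called higher and 15 lower. Of these, 12 higher and 6 lower genes kept a difference of 2 whichever cell was left out. Within the equal-control cells 17 higher and 8 lower genes kept it. With the mean of all of a gene's probe sets 8 higher and 7 lower genes kept it. Some further probe sets on in at least 3 cells missed that size, at -0.18 for Cycs and 0.77 for Igf2bp3. Others were at 1.26 for Ctsz and 0.74 for Ifnar2, so the size of these 4 calls also depends on the probe set. After the shift to an equal median level 4 of the 20 higher and all 15 lower genes did, and the median of every list was then negative, as was that of all genes (-0.89). Since that shift lowers every difference by the same amount, the kept lower genes and the lower medians were set in advance.

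The genes most like Procr over the 24 cells, by Pearson correlation, were Clic1 (0.72), Chek2 (0.66), Rap1gds1 (0.65), Igf2 (0.63) and Rassf5 (0.63). These correlations overlap the split and are descriptions, and the cells share 1 population and differ in depth and level. Clic1, an intracellular chloride channel family member, ran between 8.29 and 11.55 (median 10.97) in Procr+ cells and between 7.82 and 10.77 (median 9.15) in Procr- cells, on in all of them, a difference of 1.59. Rassf5, a Ras-family effector that binds Rap1, was on in 17 of 17 Procr+ and 6 of 7 Procr- cells (2.61), with a difference of 1.78 without Procr- cell 19.

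Within the 17 Procr+ cells, the level of Procr correlated with Clic1 at r = 0.80 (Spearman 0.46), with Igf2 at 0.71 (0.44) and with Rassf5 at 0.62 (0.44). Without cells 6 and 22, the Procr+ cells farthest from the median of Procr, these were 0.34, 0.33 and 0.22 over 15 cells, so they rested largely on those cells. Chek2 and Rap1gds1 gave 0.29 and 0.37 over 17 cells. The level of Procr also correlated with the median level of a cell's signal (r = 0.54, Spearman 0.35, and r = 0.25 without cells 6 and 22), and Clic1 did so at 0.76, while the number of probe sets on gave 0.12. Of the 12 genes with the largest positive difference 9 had a positive correlation with Procr among Procr+ cells (median 0.15), against 60.7% of all measured genes (median 0.07), and 5 of the 12 leading lower genes had one (median -0.09).

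The 24 leading genes were also read in the same split of earlier populations, whose cells were not used above. In HEC, 5 Procr+ and 2 Procr- cells, 4 of the 9 higher genes measured there had a positive difference, against 28.2% of all measured genes, and 6 of the 11 lower genes a negative one, against 71.8%. In E10.5 cluster cells, 3 Procr+ and 25 Procr- cells, 3 of the 11 higher genes had a positive difference (44.4% of all genes) and 9 of the 12 lower genes a negative one (55.6%). Chek2 differed by -4.56 in HEC and by -1.73 in E10.5 cluster cells, opposite to fetal liver. Rufy1 differed by -0.07 in HEC and by 1.00 in cluster cells, and Hadh by 2.71 and -0.29. E12.5 cluster cells had no Procr+ cell.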

How the data were processed

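RNA of single sorted mouse cells was amplified from cDNA and hybridised, 1 cell per Affymetrix array, per the labels' protocols. The deposited values are log2 signals made by the authors with GCRMA in affy, per the submitters' processing notes. Their versions are not given in any source used here. They were used as deposited, with no further normalization, and whether arrays were scaled to the control probe sets is not stated. No read depth applies, and the number of arrays limits the precision.

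Of 45101 probe sets, 34958 had 1 gene symbol in the platform annotation, 932 had several and 9211 were not listed. RefSeq GRCm38.p6 held 34754 of them and updated 0 symbols. The 64 control probe sets stayed in the counts, levels and correlations of cells, and Gapdh was read from a control probe set. Each gene was read from 1 probe set, chosen by its mean level when the 5 populations count alike. Genes over log2 5 in at least 3 of the 24 cells were measured, and a mean difference of 2 or more was called.

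The genes named are the 12 with the largest difference each way among genes on in at least 50% of the higher side's cells, the 5 with the largest difference in the share of cells each way, the 5 most like Procr, and the called members of the lists. The cells, the rule and the 33 lists were chosen with earlier results of these data known, so no count over them is independent support. Genes outside these rules, among them those on in all cells, were chosen after their values were seen. Since no animal is named for any cell, no test was run and SDs describe cells. Alternatives covered scaling, probe sets, the Procr threshold, the cells used, medians, covariates, the filter, the size called and leaving out each cell. The median level as a covariate and the shift within equal-control cells were added after seeing the data. The difference between sides was checked with known shifts added to permuted values, and the covariate fit with a known covariate added. The other steps were not checked on simulated data. Python 3.11.15, numpy 2.4.6, pandas 2.3.3, scipy 1.17.1 and matplotlib 3.10.9 were used.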

Additional observations from a re-analysis of the deposited data

Results flagged for a closer look

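Among the 7 Procr- cells, 3 of 26 measures had 1 cell far from the others by Dixon's criterion, where chance alone gives about 1 in 20. The mean of the cytokine receptor list was 7.19 in Procr- cell 1, against 5.20 to 5.98 in the others. The mean of the interferon response and MHC list was 5.36 in Procr- cell 17, against 7.08 to 7.6. The mean of the immediate early and stress list was 10.75 in Procr- cell 27, against 4.89 to 6.37. The criterion was applied to the Procr- cells only, and the 17 Procr+ cells were not screened.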

How the results depend on the processing

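No paired analysis was possible because no number or animal pairs the cells and no test was run. Against 456 higher and 357 lower genes as reported, leaving out each cell in turn gave 428 to 669 higher and 343 to 502 lower genes, highest without Procr- cell 1 and without the averaged pair. An equal median level gave 76 higher and 1420 lower genes, the same shift within the equal-control cells 246 and 1054, and quantile normalization 392 and 550. Averaging all probe sets per gene gave 186 and 138, and medians over cells 763 and 1188. The number of probe sets on as a covariate gave 853 higher genes, cells within the shared range of that number 1342, and the median level as a covariate 932 lower genes. Where the cells, the scaling or the probe sets changed, genes were measured anew, so those counts need not be over the same genes. A size of 1 called 1899 and 1406 genes, and a size of 3 called 76 and 61. The higher genes were 56.1% of those called as reported, 5.08% after the equal-median shift, 41.6% after quantile normalization, 18.9% with the shift in equal-control cells, 82.5% in the shared range, 75.6% and 36.9% with the covariates and 39.1% with medians. Among single genes, Mcm3 reversed to 0.35 with medians over cells and Slc2a3 to 0.0061 with the split at log2 10, and the cause was not tested. The small difference of Hspg2 (0.49) was -0.52 after the equal-median shift and -0.28 with that shift in equal-control cells. The split at log2 10, which compared 14 with 10 cells, gave 425 higher and 307 lower genes, and keeping the Lyve1 cells gave 443 and 380.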
